A study of Mus musculus with 12 samples.

Results

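Fos, Fosb, Fosl1, Fosl2, Jun, Junb, Jund, Egr1, Nr4a1 and Ier3 were followed in RAW 264.7 cells, a mouse macrophage line. They were taken as the rows of the count table whose gene name is one of these 10 symbols. Each symbol had 1 row, so they are 10 of 39179 genes, and all 10 were among the 13121 genes that passed the filter on low counts.

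FOS and JUN proteins join in pairs through leucine zippers to form AP-1, a transcription factor that binds the element TGACTCA and regulates cytokine, protease and proliferation genes. Many of its genes, with Egr1 (a zinc finger activator), Nr4a1 (an orphan nuclear receptor) and Ier3 (a regulator of cell survival and ERK signalling, not a transcription factor), are immediate-early genes. Their transcription starts within minutes of a stimulus, needs no new protein, and usually subsides soon afterwards, while Fosl1, Fosl2 and Jund are known for later or steadier expression. In macrophages these genes respond to microbial products, growth factors and modified lipoproteins.

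The series compared a line that carries a short hairpin RNA (shRNA) against PHLPP1, a phosphatase of AKT and other kinases, with a line that carries an shRNA against luciferase (sh-Luc, the control). Both were nucleofected, selected with puromycin and kept as 1 stable line each. The 4 groups were sh-PHLPP1 cells exposed for 24 h to 100 µg/ml of OxLDL (oxidised low-density lipoprotein, which macrophages take up), sh-PHLPP1 cells left untreated, sh-Luc cells given the same OxLDL, and sh-Luc cells left untreated. Each had 3 libraries, from culture passages 9, 10 and 11, so p-values measure the spread between passages of 1 line and not between independently made lines. Only 24 h was sampled, so earlier levels of these genes were not measured.

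Levels are CPM, counts scaled to a common library total and by TMM factors, from totals of 16020186 to 27422114 counts per library. Changes are log2 fold changes from edgeR's quasi-likelihood test. Phlpp1 itself was at 7.40 to 8.65 CPM in the OxLDL libraries labelled sh-PHLPP1 and 11.4 to 13.5 CPM in those of sh-Luc, but untreated it was at 14.0 to 17.3 CPM in libraries labelled sh-PHLPP1 and 12.4 to 14.4 CPM in those of sh-Luc. Untreated, they therefore did not have less of the targeted transcript, and sh-PHLPP1 is used below as the label of a line. Of 10 macrophage markers 9 were tested, and Mertk was at or near 0. With OxLDL 5 rose and 1 fell in sh-PHLPP1 (26.2% and 28.4% of all genes). In sh-Luc 1 rose and 1 fell (6.38% and 3.09% of all genes). The summed CPM of the 10 was 16244 to 18729 in OxLDL and 11224 to 13119 in untreated sh-PHLPP1 libraries, and 18597 to 20562 in OxLDL and 16391 to 19646 in untreated sh-Luc libraries. Such a sum follows the most abundant markers. After OxLDL 6 of the 9 were higher and 2 lower in sh-PHLPP1 than in sh-Luc (27.6% of all genes each). Their mean log2 CPM was 9.63 to 9.79 in these sh-PHLPP1 and 8.98 to 9.26 in these sh-Luc libraries. Untreated, 1 was higher and 2 lower (14.9% and 12.2% of all genes). Lymphocyte markers summed to at most 0.52 CPM and fibroblast or epithelial markers to at most 5.03 CPM in any library. Of 8 fibroblast or epithelial markers, the 3 tested rose with OxLDL in sh-PHLPP1 (26.2% of all genes).

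In both untreated groups 1 library stood apart across the transcriptome. Replicate 1 of untreated sh-PHLPP1 had an r of 0.967 and 0.966 (log2 CPM over genes) to the other replicates, whose own r was 0.995. For replicate 2 of untreated sh-Luc the values were 0.983 and 0.984, against 0.994 between the others. Replicate 3 of sh-PHLPP1 with OxLDL was also less like its group, at 0.984 and 0.987 against 0.993. It was left out only on its own, which ended the calls of Fosb with OxLDL in sh-PHLPP1 and of Fosl1 with OxLDL in sh-Luc (0.78, adjusted p = 0.0524) and in the difference of responses (0.94, adjusted p = 0.0772), and called Fosl1 in untreated cells (-0.67, adjusted p = 0.0491). The genes followed here were among those that differed in these libraries, so wherever leaving out both changed a call or a direction of the 10 genes that value is given too. Without both, the untreated groups have 2 libraries each, and the libraries were singled out on the same data. In that fit 6 of the 9 macrophage markers rose and 1 fell with OxLDL in sh-PHLPP1 (29.5% and 32.7% of all genes). In sh-Luc 3 rose and 2 fell (15.5% and 11.0% of all genes).

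Promoter sequence was matched for 8 of the 10 genes (RefSeq, GRCm38.p6, the 250 bases before the start that its table gives). That start is of 1 transcript and can differ from the outer gene ends given below, most for Nr4a1 and Fosl2, where it lies inside the GENCODE gene, and for Jund, where it lies before it. The 4 shown are those of Fos and Fosb, which were high together in the libraries that stand apart, and of Junb and Nr4a1, which were high together in the OxLDL libraries of sh-PHLPP1. Capitals mark the letters of a CRE half-site (TGACG, or CGTCA on the other strand) and of an EGR site (GCGNGGGCG, or its reverse complement). The positions are chr12:85473640-85473889 (plus strand) for Fos, chr7:19310046-19310295 (minus) for Fosb, chr8:84978749-84978998 (minus) for Junb and chr15:101266596-101266845 (plus) for Nr4a1.
Fos: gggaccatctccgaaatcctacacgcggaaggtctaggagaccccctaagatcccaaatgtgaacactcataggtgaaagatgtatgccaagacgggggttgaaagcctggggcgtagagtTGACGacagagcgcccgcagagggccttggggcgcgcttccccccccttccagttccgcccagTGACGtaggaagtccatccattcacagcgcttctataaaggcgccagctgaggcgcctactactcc
Fosb: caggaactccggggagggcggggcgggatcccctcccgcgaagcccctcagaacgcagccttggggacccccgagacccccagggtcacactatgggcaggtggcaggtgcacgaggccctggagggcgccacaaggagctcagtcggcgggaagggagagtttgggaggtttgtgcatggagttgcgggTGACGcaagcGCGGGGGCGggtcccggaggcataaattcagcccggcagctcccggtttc
Junb: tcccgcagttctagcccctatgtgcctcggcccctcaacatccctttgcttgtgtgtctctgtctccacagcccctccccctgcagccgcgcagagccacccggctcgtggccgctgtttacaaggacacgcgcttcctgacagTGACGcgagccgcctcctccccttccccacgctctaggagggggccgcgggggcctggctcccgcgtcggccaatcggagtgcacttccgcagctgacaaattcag
Nr4a1: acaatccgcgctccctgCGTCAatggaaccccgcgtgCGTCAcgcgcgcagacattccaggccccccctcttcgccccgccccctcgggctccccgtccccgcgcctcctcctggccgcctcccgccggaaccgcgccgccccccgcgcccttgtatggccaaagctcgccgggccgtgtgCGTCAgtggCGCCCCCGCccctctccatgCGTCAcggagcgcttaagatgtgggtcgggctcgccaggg

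Both strands of the 8 windows were searched for TGACTCA, the CRE TGACGTCA, the CArG box, the NBRE AAAGGTCA, GCGNGGGCG and TGACG, the last chosen after the sequences were seen and contained in TGACGTCA. The EGR site letters stood 50 bases before the start in Fosb, 79 in Fosl2 and 60 in Nr4a1, against 4.70% of 32851 promoters of the same length. TGACG stood at 129 and 66 bases before the start in Fos, 60 in Fosb, 106 in Junb, and at 233, 213, 69 and 40 in Nr4a1, and was in 17.8% of promoters. TGACTCA (4.46% of promoters), TGACGTCA (1.55%), the CArG box (1.47%) and AAAGGTCA (1.34%) had no match in the 8 windows. Sequence further than 250 bases before the start was not searched, and Fosl1 and Egr1 had no window, so sites there could not be seen. A match is a description of letters and not a site of binding.

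Across the 10 genes, OxLDL moved 7 in the sh-PHLPP1 line (6 higher and 1 lower) and 2 in the sh-Luc line (both higher). The background was 54.6% of all genes called in the sh-PHLPP1 line (26.2% higher, 28.4% lower) and 9.47% in the sh-Luc line (6.38% higher, 3.09% lower). The median log2 change of the 10 was 0.90 in sh-PHLPP1, against -0.03 over all genes, and 0.16 in sh-Luc, against -0.0036. After OxLDL 5 genes were higher in sh-PHLPP1 than in sh-Luc and none was lower (background 55.2%, with 27.6% in either direction). Untreated, 2 were lower in sh-PHLPP1 and none was higher (background 27.0%, with 14.9% higher and 12.2% lower). The comparisons share groups, so they are not independent of each other. In bulk RNA, more cells expressing a gene and more RNA of it per cell cannot be told apart.

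**Figure D1:**
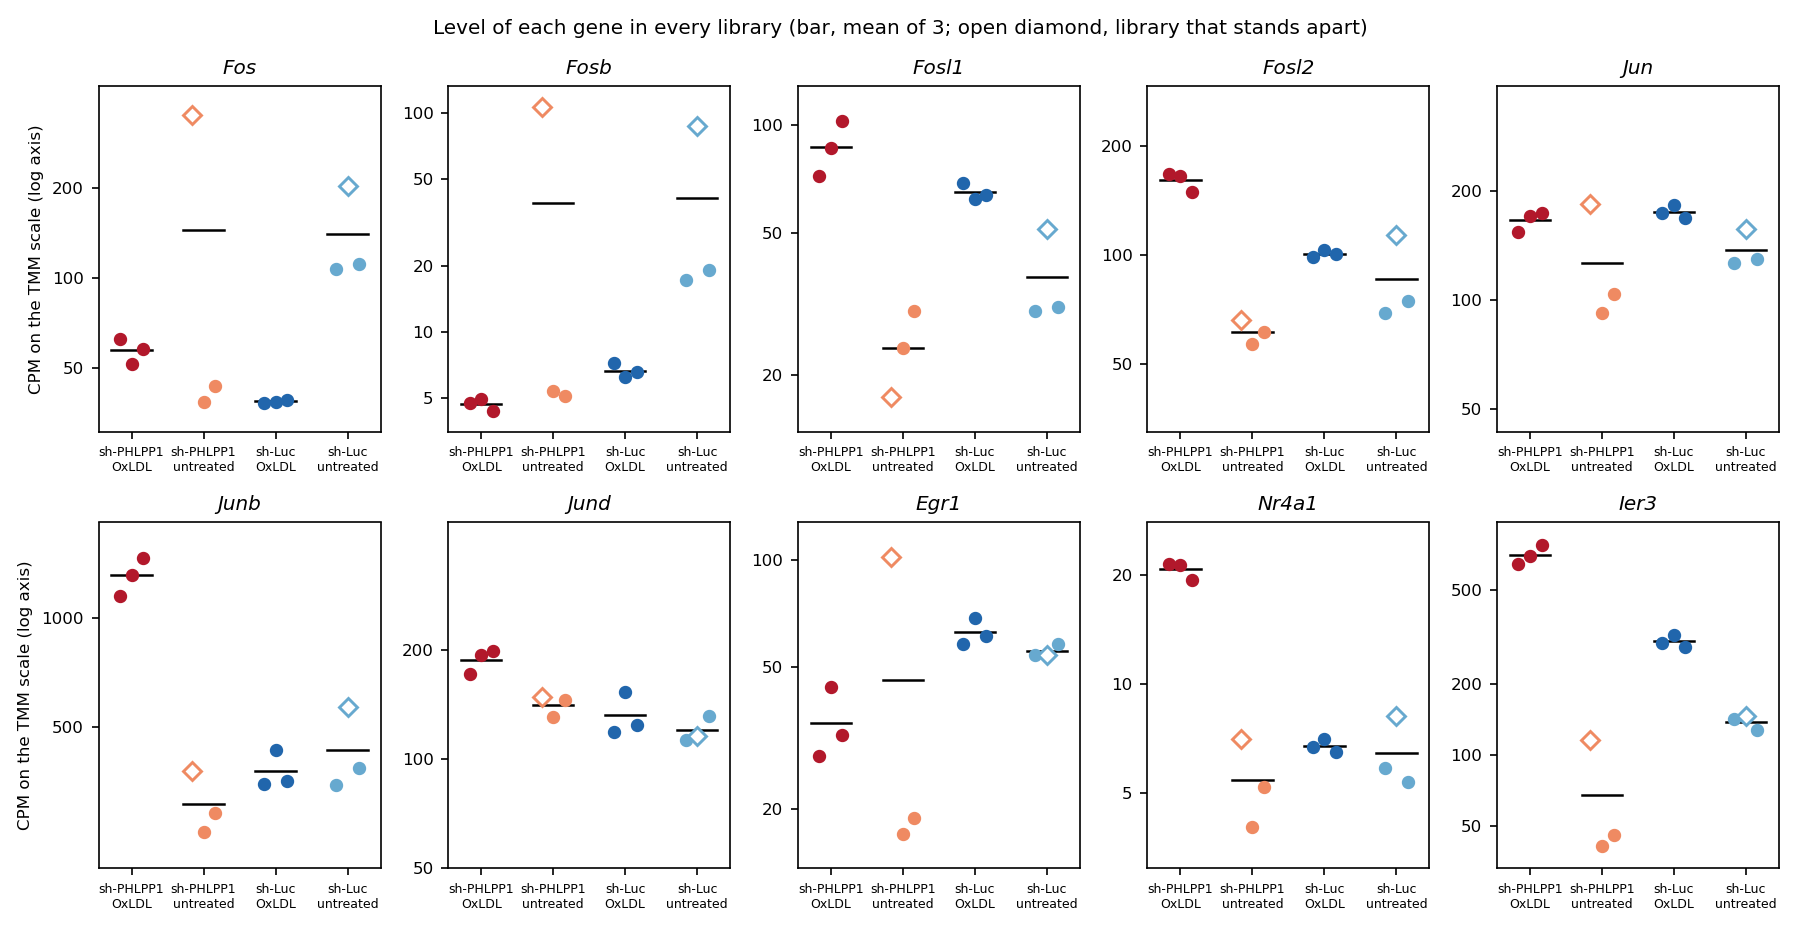
Level of each gene in all 12 libraries, in CPM on the TMM scale on log axes that differ between panels, with groups along the x axis, a point per library, a bar at the mean of 3 and an open diamond for the library that stands apart. Junb, Nr4a1, Ier3, Fosl1, Fosl2 and Jund are highest in all 3 OxLDL libraries of sh-PHLPP1, Fosl1 by little. Fos, Fosb and Egr1 are highest in replicate 1 of untreated sh-PHLPP1, at 352, 106 and 102 CPM.

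Within the FOS family the classical members Fos and Fosb and the FOS-related members Fosl1 (FRA-1) and Fosl2 (FRA-2) followed different patterns. Fosl1 lies at chr19:5447547-5455946 on the plus strand (ENSMUSG00000024912). Fosl1 was at 72.0, 85.9 and 102 CPM in OxLDL and 17.4, 23.9 and 30.3 CPM in untreated sh-PHLPP1 libraries, and at 68.9, 61.8 and 63.5 CPM in OxLDL and 30.3, 51.3 and 31.1 CPM in untreated sh-Luc libraries. In both lines every OxLDL library was above every untreated one, and those of sh-PHLPP1 stood above all other libraries, by little over sh-Luc with OxLDL. The change was 1.86 ± 0.23 (log2, SE; n = 3 against 3, edgeR adjusted p = 4.03e-05) in sh-PHLPP1, a 3.63-fold rise, and 0.78 ± 0.23 (adjusted p = 0.0487) in sh-Luc. The sh-Luc call was lost without any 1 of 9 libraries (0.66 to 0.82), and with both such libraries left out the change was 1.08 (adjusted p = 7.02e-05). Between the lines after OxLDL, Fosl1 gave 0.42 (95% interval -0.07 to 0.91, adjusted p = 0.129) over all libraries, 0.40 (adjusted p = 0.00842) without both that stand apart and 0.41 (adjusted p = 0.0129) with only the OxLDL groups fitted. In untreated cells it was -0.65 (adjusted p = 0.0509), which passed at -0.69 in DESeq2 (adjusted p = 0.0193) and at -0.66 with no filter on low counts (adjusted p = 0.0247), and was -0.19 (adjusted p = 0.327) without both.

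Fosl2 (chr5:32135801-32157842, plus strand, ENSMUSG00000029135) was at 167, 165 and 149 CPM in OxLDL and 66.2, 56.7 and 61.4 CPM in untreated sh-PHLPP1 libraries. In sh-Luc it was at 98.6, 103 and 100 CPM with OxLDL and 69.2, 114 and 74.3 CPM untreated. The OxLDL libraries of sh-PHLPP1 stood above all other libraries, while in sh-Luc the treated values lay within the range of the untreated ones. Fosl2 rose by 1.39 ± 0.16 on the log2 scale (2.62-fold, adjusted p = 2.33e-05) with OxLDL in sh-PHLPP1. In sh-Luc the change was 0.23 (95% interval -0.11 to 0.58), and 0.49 (adjusted p = 0.000911) with both such libraries left out. Between the lines it was 0.67 ± 0.16 higher in sh-PHLPP1 after OxLDL (adjusted p = 0.00361) and lower in untreated cells (-0.48 ± 0.16, adjusted p = 0.0420). The untreated call was lost without any of 8 single libraries, with -0.23 as the smallest size, and when only the untreated groups were fitted (adjusted p = 0.148).

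Fos (chr12:85473890-85477273, plus strand, ENSMUSG00000021250), the classical partner of JUN, was at 62.5, 51.6 and 58.1 CPM in OxLDL and 352, 38.4 and 43.5 CPM in untreated sh-PHLPP1 libraries. In sh-Luc it was at 38.2, 38.5 and 39.2 CPM with OxLDL and 108, 203 and 111 CPM untreated. All 3 untreated sh-Luc libraries were thus above all 3 treated ones, while in sh-PHLPP1 the treated libraries lay between the untreated ones. The edgeR fit gave -1.86 ± 0.66 (adjusted p = 0.0975) for OxLDL in sh-Luc and -1.33 ± 0.65 (adjusted p = 0.101) in sh-PHLPP1, and neither passed.

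The Fos result turned on the libraries that stand apart, which also enter the spread pooled over the groups. Without both, Fos was -1.50 ± 0.09 (adjusted p = 9.78e-08) with OxLDL in sh-Luc and 0.48 ± 0.10 (adjusted p = 0.000794) in sh-PHLPP1, where the direction turned. Without replicate 1 of untreated sh-PHLPP1 alone, the sh-PHLPP1 change was 0.48 (adjusted p = 0.0882) and was not called. It was 0.50 (adjusted p = 0.00721) without that library when only the sh-PHLPP1 groups were fitted. When only the 2 sh-Luc groups were fitted with all their libraries, the change was -1.86 (adjusted p = 0.00265). Between the lines Fos gave 0.57 (95% interval -0.84 to 1.98) after OxLDL over all libraries. The same comparison passed at 0.55 (adjusted p = 8.51e-05) with both libraries left out and at 0.56 (adjusted p = 0.000524) when only the OxLDL groups, which hold neither of them, were fitted. In untreated cells Fos was 0.04 (95% interval -1.35 to 1.42) over all libraries and -1.42 ± 0.11 (adjusted p = 1.73e-07) without both.

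Fosb (chr7:19302696-19310051, minus strand, ENSMUSG00000003545), a close relative of Fos, was the least abundant of the family after OxLDL. It was at 4.73, 4.92 and 4.37 CPM in OxLDL and 106, 5.36 and 5.07 CPM in untreated sh-PHLPP1 libraries, and at 7.20, 6.21 and 6.54 CPM in OxLDL and 17.2, 86.6 and 19.2 CPM in untreated sh-Luc libraries. The untreated libraries were above the treated ones in both lines, by little in 2 of 3 sh-PHLPP1 libraries. Fosb fell by 3.04 ± 1.07 on the log2 scale with OxLDL in sh-PHLPP1 (adjusted p = 0.0290). Without replicate 1 of untreated sh-PHLPP1 it changed by -0.17 (adjusted p = 0.838), and without both libraries that stand apart by -0.16 (adjusted p = 0.325). The call was also lost without any single OxLDL library of that line (-3.08 to -3.01). In sh-Luc the change of -2.62 ± 1.02 did not pass (adjusted p = 0.126), and with both such libraries left out it was -1.45 ± 0.12 (adjusted p = 1.03e-06). Between the lines Fosb did not pass over all libraries, at -0.51 (95% interval -2.84 to 1.83) after OxLDL and -0.09 (-2.10 to 1.93) untreated. Without both libraries it was lower in sh-PHLPP1, by -0.52 (adjusted p = 0.00250) after OxLDL and -1.81 (adjusted p = 1.61e-07) untreated.

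Levels can be compared between genes only per length, as CPM per kb of exon sequence. On that scale, the FOS family summed to 84.4 ± 5.94 CPM per kb in OxLDL and 85.8 ± 83.3 in untreated sh-PHLPP1 cells, and to 59.7 ± 1.55 in OxLDL and 93.7 ± 37.7 in untreated sh-Luc cells (SD, n = 3 each). The sums of OxLDL and untreated libraries overlapped in sh-PHLPP1 and did not in sh-Luc. Fos held 26.7 to 33.2% of the family sum in OxLDL and 45.6 to 82.2% in untreated sh-PHLPP1 libraries, and 26.5 to 28.1% in OxLDL and 63.0 to 64.9% in untreated sh-Luc libraries. Fosl1 held 44.3 to 55.3% and 4.71 to 36.7% in the OxLDL and untreated libraries of sh-PHLPP1, and 52.0 to 55.1% and 18.4 to 21.1% in those of sh-Luc. In both lines the OxLDL and untreated shares of Fos did not overlap, nor did those of Fosl1. These shares were not tested.

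**Figure D2:**
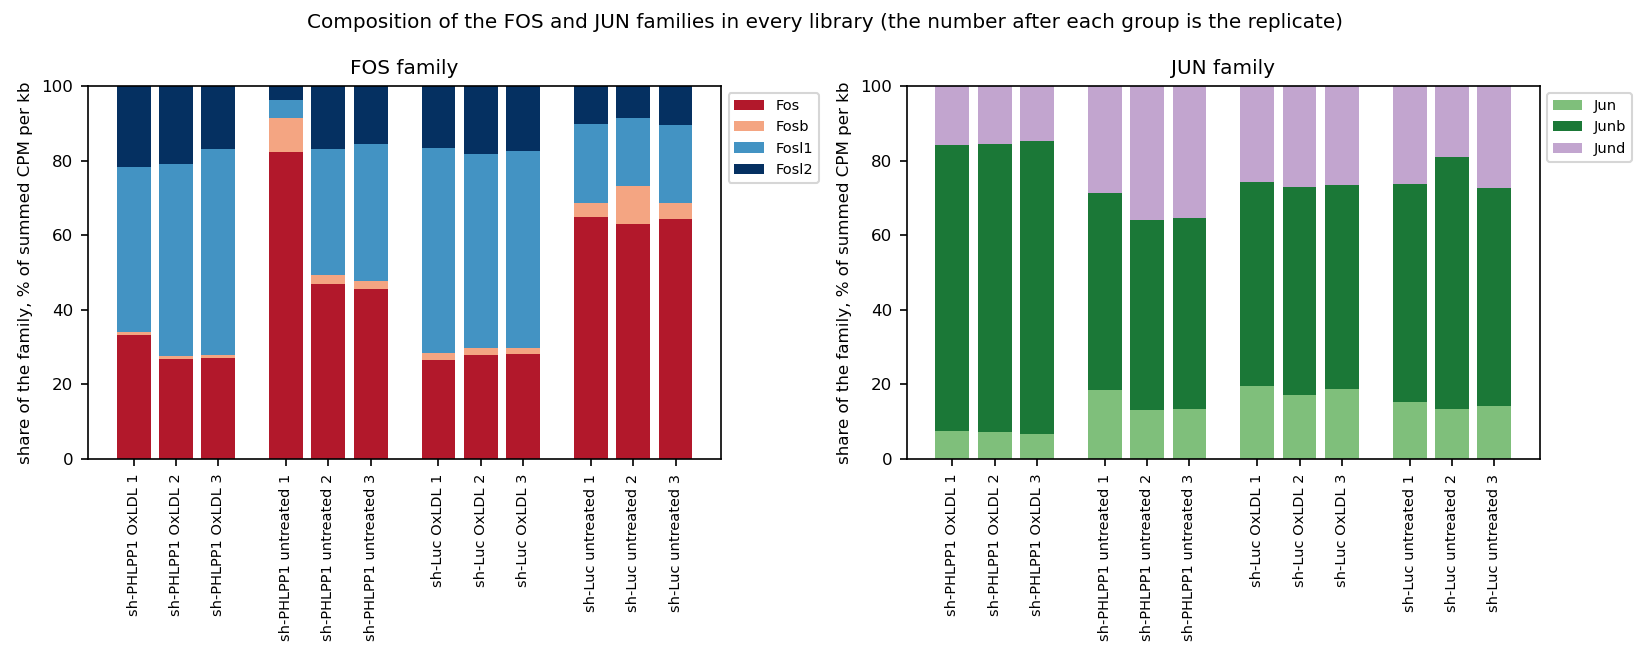
Share of each FOS (left) and JUN (right) gene in its family's summed CPM per kb, in percent, with a stacked bar per library and the groups side by side. Fosl1 holds 44.3 to 55.3% of the FOS family in all 6 OxLDL libraries of both lines, and Junb holds 76.8 to 78.5% of the JUN family in the OxLDL libraries of sh-PHLPP1.

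In the JUN family, Junb changed, Jund changed little and Jun did not pass in any comparison over all libraries. Junb (chr8:84974484-84978718, minus strand, ENSMUSG00000052837), known as a weaker activator than JUN and a partner of FOS proteins in immune cells, was at 1151, 1315 and 1459 CPM in OxLDL and 377, 256 and 288 CPM in untreated sh-PHLPP1 libraries. In sh-Luc it was at 347, 432 and 354 CPM with OxLDL and 346, 566 and 386 CPM untreated. The 3 OxLDL libraries of sh-PHLPP1 stood far above the other 9, and the treated and untreated sh-Luc libraries overlapped. Junb rose by 2.09 ± 0.20 on the log2 scale (4.26-fold, 95% interval 1.65 to 2.53, adjusted p = 5.62e-06) with OxLDL in sh-PHLPP1, and changed by -0.20 (95% interval -0.62 to 0.23, adjusted p = 0.567) in sh-Luc. After OxLDL it was 1.79 ± 0.20 higher in sh-PHLPP1 than in sh-Luc (3.46-fold, adjusted p = 2.54e-05). In untreated cells it was -0.50 (adjusted p = 0.0766), and -0.44 (adjusted p = 0.0174) with both such libraries left out.

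Jund (chr8:70698949-70700616, plus strand, ENSMUSG00000071076), known as the steadily expressed JUN gene, was at 171, 194 and 198 CPM in OxLDL and 148, 130 and 145 CPM in untreated sh-PHLPP1 libraries. The sh-Luc libraries were at 119, 152 and 124 CPM with OxLDL and 113, 115 and 131 CPM untreated. Only the OxLDL libraries of sh-PHLPP1 lay clear of the other groups. Jund rose by 0.41 ± 0.12 (1.33-fold, adjusted p = 0.0114) with OxLDL in sh-PHLPP1 and was 0.51 ± 0.12 higher than in sh-Luc after OxLDL (1.42-fold, adjusted p = 0.00346). When libraries were scaled by their totals alone, which shifts the median of all genes, the first of these was -0.02 and the second 0.25 (adjusted p = 0.106). The change in sh-Luc was 0.14 (95% interval -0.12 to 0.40).

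Jun (chr4:95049034-95052222, minus strand, ENSMUSG00000052684), the founding member and the strongest activator of the family, was at 154, 170 and 174 CPM in OxLDL and 184, 91.9 and 104 CPM in untreated sh-PHLPP1 libraries. In sh-Luc it was at 174, 183 and 169 CPM with OxLDL and 127, 157 and 130 CPM untreated. The OxLDL libraries of the lines overlapped, with the lowest value, 154 CPM, in sh-PHLPP1. Jun changed by 0.39 (95% interval -0.06 to 0.84, adjusted p = 0.125) with OxLDL in sh-PHLPP1 and 0.35 (-0.10 to 0.80, adjusted p = 0.320) in sh-Luc. With both such libraries left out it rose in both, by 0.75 (adjusted p = 9.15e-06) in sh-PHLPP1 and 0.45 (adjusted p = 0.00218) in sh-Luc. Between the lines after OxLDL the difference was -0.07 (95% interval -0.52 to 0.37), and -0.09 (adjusted p = 0.321) without both. In untreated cells it was -0.12 (adjusted p = 0.685), and -0.39 (adjusted p = 0.00481) without both, where Jun was lower in sh-PHLPP1.

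The JUN family summed to 733 ± 78.5 CPM per kb in OxLDL and 258 ± 47.3 in untreated sh-PHLPP1 cells, and to 298 ± 33.4 in OxLDL and 303 ± 55.0 in untreated sh-Luc cells. Junb held 76.8 to 78.5% of that sum in OxLDL and 51.0 to 52.8% in untreated sh-PHLPP1 libraries, and 54.6 to 55.8% in OxLDL and 58.4 to 67.5% in untreated sh-Luc libraries. Jun held 6.76 to 7.44% in the OxLDL libraries of sh-PHLPP1 and 13.2 to 19.7% in the other 9 libraries. The share of Jun was thus lowest where Junb was highest, but shares of the same sum are not independent of each other. The CPM of Jun itself overlapped between the OxLDL libraries of the lines.

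Egr1 (ENSMUSG00000038418, on chromosome 18) was at 28.1, 43.8 and 32.2 CPM in OxLDL and 102, 17.0 and 18.9 CPM in untreated sh-PHLPP1 libraries. In sh-Luc it was at 58.1, 68.5 and 61.2 CPM with OxLDL and 54.2, 54.1 and 58.0 CPM untreated. Every OxLDL library of sh-PHLPP1 was below every OxLDL library of sh-Luc. Over all libraries the difference between the lines after OxLDL was -0.85 ± 0.52 (95% interval -1.98 to 0.28, adjusted p = 0.184). It passed at -0.87 ± 0.13 (adjusted p = 6.54e-05) with both such libraries left out, and at -0.86 (adjusted p = 0.000526) when only the OxLDL groups were fitted. OxLDL gave -0.40 (95% interval -1.53 to 0.73) in sh-PHLPP1, which turned to 0.95 ± 0.16 (adjusted p = 0.000143) without both, where replicate 1 of the untreated group held 5.69 times the mean of the other replicates. In sh-Luc the change was 0.18 (95% interval -0.93 to 1.29), and 0.16, again not called, without both. Egr1 in untreated cells was -0.28 (95% interval -1.39 to 0.84), and -1.65 (adjusted p = 3.03e-06) without both.

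Nr4a1 (chr15:101254269-101274795, plus strand, ENSMUSG00000023034), also called NUR77 and known for restraining inflammatory genes in macrophages, was at 21.4, 21.3 and 19.4 CPM in OxLDL and 7.06, 4.03 and 5.19 CPM in untreated sh-PHLPP1 libraries. The sh-Luc libraries were at 6.67, 7.06 and 6.48 CPM with OxLDL and 5.85, 8.13 and 5.35 CPM untreated. The 3 OxLDL libraries of sh-PHLPP1 formed a group of their own, and the other 3 groups overlapped. Nr4a1 rose by 1.94 ± 0.21 (3.84-fold, 95% interval 1.49 to 2.39, adjusted p = 1.10e-05) with OxLDL in sh-PHLPP1. In sh-Luc it changed by 0.06 (95% interval -0.38 to 0.51, adjusted p = 0.873). After OxLDL it was 1.62 ± 0.20 higher in sh-PHLPP1 than in sh-Luc (3.07-fold, adjusted p = 5.48e-05), and in untreated cells the difference was -0.26 (95% interval -0.70 to 0.19). Leaving out both libraries that stand apart gave 2.17, 0.27, 1.60 and -0.29 for these 4 changes in the same order, with the same calls.

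Ier3 (chr17:35821684-35822923, plus strand, ENSMUSG00000003541) was called in every comparison over all libraries. It was at 647, 700 and 777 CPM in OxLDL and 116, 41.1 and 45.6 CPM in untreated sh-PHLPP1 libraries, and at 298, 323 and 288 CPM in OxLDL and 142, 146 and 127 CPM in untreated sh-Luc libraries. No 2 of the 4 groups overlapped, with OxLDL libraries above untreated ones in both lines. The rise with OxLDL was 3.39 ± 0.33 on the log2 scale (10.5-fold, adjusted p = 4.98e-06) in sh-PHLPP1 and 1.13 ± 0.30 (2.19-fold, adjusted p = 0.0335) in sh-Luc. Ier3 was 1.22 ± 0.30 higher in sh-PHLPP1 than in sh-Luc after OxLDL (2.34-fold, adjusted p = 0.00447) and lower in untreated cells, with -1.04 ± 0.30 (adjusted p = 0.0251). With both such libraries left out these 4 changes were 4.02, 1.17, 1.21 and -1.64. The sh-Luc call was lost without any single sh-Luc library or OxLDL replicate 2 of sh-PHLPP1 (1.08 to 1.18), and the untreated call without 4 of the untreated libraries, 1 at a time (-1.02 to -0.78).

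**Figure D3:**
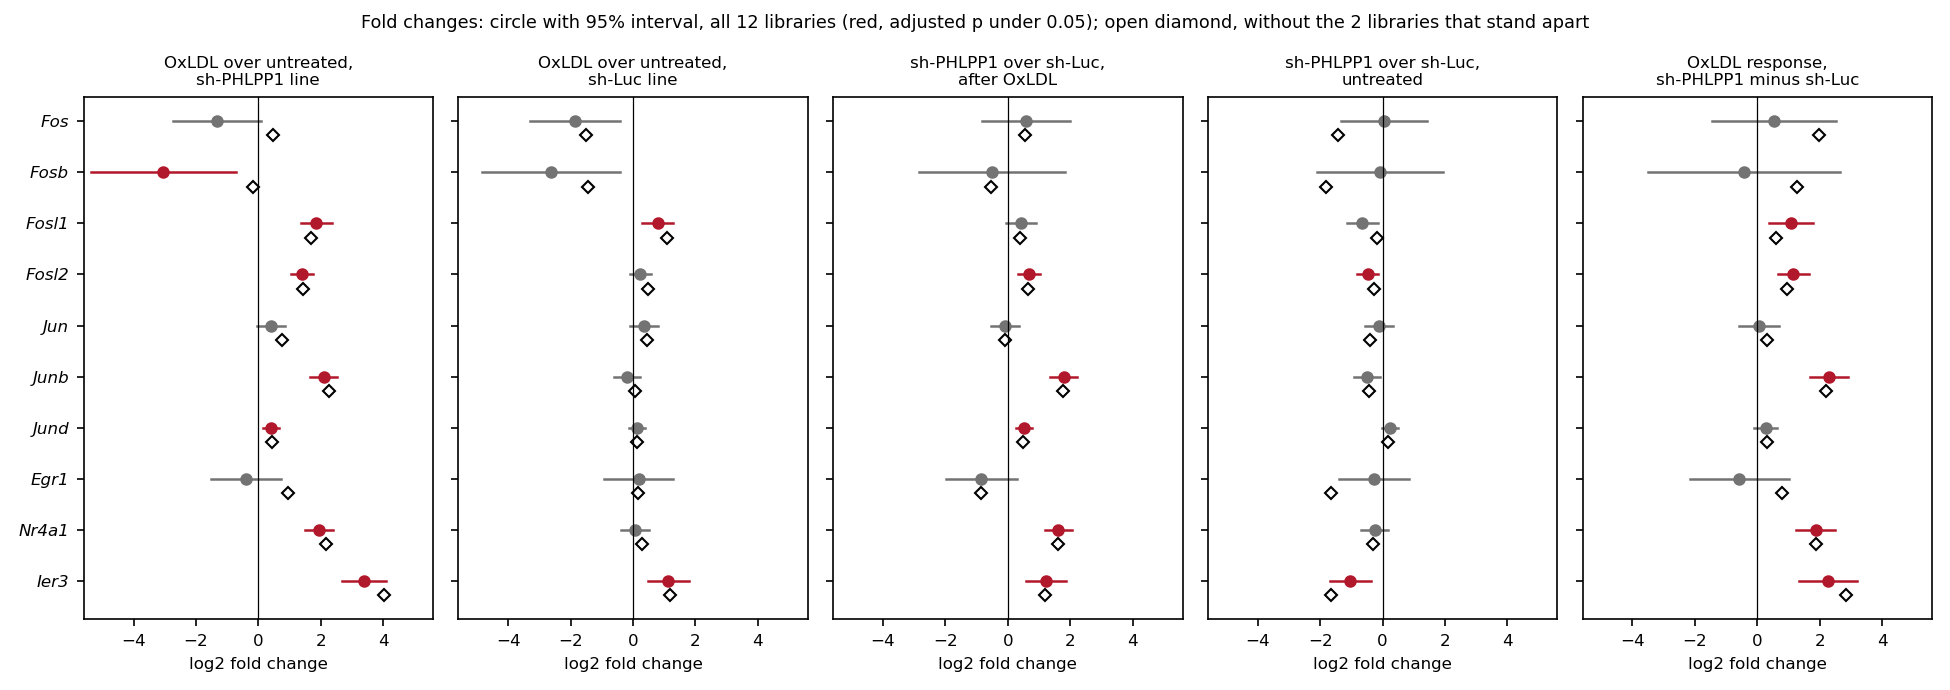
Log2 fold change of each gene (rows) in the 5 comparisons (panels), with a circle and its 95% interval over all 12 libraries, red where the adjusted p was under 0.05, and an open diamond with both such libraries left out. Circle and diamond lie close together for Junb, Nr4a1, Fosl2 and Jund and far apart for Fos, Fosb and Egr1 wherever untreated sh-PHLPP1 libraries enter.

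The OxLDL response itself differed between the lines for 5 of the 10 genes, all with a larger response in sh-PHLPP1 (the interaction, background 24.6% of all genes, with 11.1% larger and 13.6% smaller). The difference was 2.29 ± 0.28 for Junb (adjusted p = 0.000217), 2.26 ± 0.42 for Ier3 (adjusted p = 0.00333), 1.88 ± 0.29 for Nr4a1 (adjusted p = 0.000935), 1.16 ± 0.23 for Fosl2 (adjusted p = 0.00416) and 1.08 ± 0.32 for Fosl1 (adjusted p = 0.0295). Fosl1 was at 0.77 and not called without replicate 2 of untreated sh-Luc, and its call was also lost without 6 other single libraries. The interaction of Jun was 0.05 (95% interval -0.59 to 0.68), of Jund 0.28 (-0.09 to 0.64), of Fos 0.53 (-1.44 to 2.51), of Fosb -0.42 (-3.50 to 2.66) and of Egr1 -0.57 (-2.16 to 1.01). The intervals of Fos and Fosb hold differences of the size called for Ier3 or larger. With both such libraries left out 8 genes were called, with Fos at 1.98, Fosb at 1.28 and Egr1 at 0.79 added (background 39.9%, with 16.7% larger and 23.2% smaller).

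Leaving out both libraries raised the calls among the 10 genes and the background together. For OxLDL in sh-PHLPP1 it gave 9 called genes, all higher (background 62.2%, with 29.5% higher and 32.7% lower), Junb at 2.26, Fosl1 at 1.67, Fosl2 at 1.44 and Jund at 0.44 among them. For OxLDL in sh-Luc it gave 4 higher and 2 lower (background 26.5%, with 15.5% higher and 11.0% lower). Between the lines after OxLDL 7 were higher and 2 lower in sh-PHLPP1 (background 66.4%, with 32.7% higher and 33.7% lower), and in untreated cells 7 were lower (background 47.0%, with 24.5% higher and 22.5% lower). For the lines after OxLDL, the authors' deposited table gave 9 of the 10 genes an adjusted p under 0.05, all but Jun, with log2 changes of 1.80 for Junb, 0.58 for Fos and -0.84 for Egr1. In the authors' deposited table for OxLDL in sh-Luc 5 were under that threshold, with Fos at -1.86, Fosb at -2.62, Fosl1 at 0.79, Jun at 0.35 and Ier3 at 1.14. The authors' deposited table for untreated cells had only Ier3 under it, at -1.05. The share of all genes under that threshold was not computed for the deposited comparisons, so these counts have no background beside them.

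The libraries that stand apart differed most in Fosb and Fos. In replicate 1 of untreated sh-PHLPP1, Fosb was 20.3 times, Fos 8.59 times, Egr1 5.69 times, Ier3 2.67 times and Jun 1.87 times the mean of the other replicates, while Fosl1 was at 0.643 of it. In replicate 2 of untreated sh-Luc, Fosb was 4.76 times and Fos 1.86 times the mean of the others, with Fosl1, Fosl2, Junb and Nr4a1 at 1.45 to 1.67 times and Egr1 at 0.964. Over all genes, 5.98% were at least 2 times higher and 6.83% at least 2 times lower in the first library, and 2.58% and 2.86% in the second. Of 27 other immediate-early genes 9 were at least 2 times higher in the first and 5 in the second, and 0 were at least 2 times lower in either. What set these libraries apart was not tested.

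Per length, the order of the 10 genes differed between the groups. In OxLDL cells of sh-PHLPP1, Ier3 (626 CPM per kb) and Junb (569) led with overlapping ranges, followed by Jund (112), Jun (52.2) and Fosl1 (42.7), of which the last pair overlapped, then Fos (24.4), Fosl2 (16.6), Egr1 (7.74), Nr4a1 (5.90) and Fosb (0.748). In untreated sh-PHLPP1 cells Junb (133) led, Jund (84.5) came next, and Fos (61.5, from 16.3 to 150) overlapped both of these as well as Ier3 (59.7) and Jun (39.7). In OxLDL cells of sh-Luc the order was Ier3 (268), Junb (164), Jund (78.9), Jun (54.9), Fosl1 (31.8), Fos (16.4), Egr1 (14.0), Fosl2 (10.4), Nr4a1 (1.92) and Fosb (1.07), with no overlap between neighbours. In untreated sh-Luc cells Junb (188) and Ier3 (122) led, and Jund (71.8), Fos (59.8) and Jun (43.2) overlapped in a chain. Fosb and Nr4a1 thus had the 2 lowest means in all 4 groups.

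Exons of 4 of the genes share bases with a gene on the opposite strand, and the strand setting of the counting is not given, so reads there may be split or lost. Junb shares 173 exon bases with Prdx2, a peroxiredoxin with 43.2% as many counts, which was not called in any comparison (-0.27 to 0.19). Fosl1 shares 1163 bases with Ccdc85b, which has 58.1% as many counts and went the other way, with -1.24 for OxLDL in sh-PHLPP1 (adjusted p = 6.04e-05) and -0.30 in sh-Luc (adjusted p = 0.252). Junos overlaps 232 bases of Jun with 0.807% as many counts, and a predicted gene overlaps Jund with 0 counts.

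Genes with a pattern most like 5 of these were found by Pearson r of log2 CPM over the 12 libraries among 9335 genes, as a description of libraries that share groups. Nearest to Ier3 were Il1rn (interleukin 1 receptor antagonist, r = 0.991), Hcar2 (a receptor of hydroxylated acids, 0.987) and Ccl4 (a chemokine, 0.984). Il1rn averaged 3728 CPM in OxLDL and 87.0 CPM in untreated sh-PHLPP1 cells, and 883 CPM in OxLDL and 203 CPM in untreated sh-Luc cells. Nr4a1 was nearest to Faf2 (0.983), Clk3 (0.978) and Zdhhc6 (0.977), whose means spanned a narrower range, for Clk3 91.1 CPM in OxLDL and 40.4 CPM in untreated sh-PHLPP1 cells. Fos was nearest to Tapbp (0.946), Mitf (0.908) and Crebzf (0.908), Egr1 to Epn2 (0.948), Cdt1 (0.928) and Gpatch3 (0.921), and Jun to Dtnbp1 (0.927), Snx8 (0.908) and Tmem129 (0.905).

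Other immediate-early genes moved mostly upward with OxLDL in sh-PHLPP1. Of 27 tested, 16 rose and 3 fell there (median 1.33, background 26.2% higher and 28.4% lower), and 6 rose and 1 fell in sh-Luc (median 0.12, background 6.38% higher and 3.09% lower). Gadd45b, a stress-response gene, rose by 5.04 ± 0.18 in sh-PHLPP1 (adjusted p = 1.26e-09) and 1.44 ± 0.16 in sh-Luc (adjusted p = 0.000119), Nfkbia, the NF-kB inhibitor, by 3.56 in sh-PHLPP1 and Dusp5, an ERK phosphatase, by 4.92. Between the lines 17 were higher and 2 lower after OxLDL (background 27.6% each), and 4 higher and 7 lower untreated (background 14.9% higher and 12.2% lower), where Klf4 was at 2.37 and Dusp5 at -2.09. The response differed for 12 of the 27, with 11 larger in sh-PHLPP1 (background 24.6%, with 11.1% larger and 13.6% smaller). Ptgs2 (cyclooxygenase 2) was among the larger ones, at 7.13. With both such libraries left out 16 rose and 4 fell in sh-PHLPP1, 12 rose and 3 fell in sh-Luc, and 4 were higher and 12 lower in untreated sh-PHLPP1 cells. The backgrounds were then 29.5% higher and 32.7% lower in sh-PHLPP1, 15.5% and 11.0% in sh-Luc, and 24.5% and 22.5% in untreated cells.

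Known AP-1 target genes, mostly cytokines and matrix proteases that NF-kB also controls, were also higher more often than lower after OxLDL. Against the same backgrounds, 12 of 18 tested rose and 3 fell with OxLDL in sh-PHLPP1 (median 2.44), and 6 rose and 1 fell in sh-Luc (median 0.76). Ccl2, a monocyte chemokine, rose by 8.21 ± 0.33 in sh-PHLPP1 (adjusted p = 3.77e-09) and 3.86 ± 0.26 in sh-Luc (adjusted p = 4.75e-06). After OxLDL 11 were higher in sh-PHLPP1 than in sh-Luc and 4 lower, with Il6 at 6.60 and Il1b at 5.07. In untreated cells none was higher and 8 were lower in sh-PHLPP1, with Ccl2 at -3.39, Tnf at -1.91 and Mmp9 at -1.52. The response differed for 13, with 11 larger in sh-PHLPP1 (background 24.6%, with 11.1% larger and 13.6% smaller), Mmp9 at 4.04. With both libraries that stand apart left out 14 rose and 3 fell in sh-PHLPP1 (background 29.5% and 32.7%), and 9 rose and 1 fell in sh-Luc (background 15.5% and 11.0%). Osteoclast markers, a list of 8 that shares Mmp9 with this one and of which Mmp9 alone of 6 tested rose in either line over all libraries, summed to 678 to 804 CPM in OxLDL and 58.2 to 112 CPM in untreated sh-PHLPP1 libraries, and to 358 to 503 CPM in OxLDL and 180 to 478 CPM in untreated sh-Luc libraries. After OxLDL 4 of the 6 were lower in sh-PHLPP1 than in sh-Luc and Mmp9 was higher (background 27.6% each). Untreated, 5 of the 6 were lower (background 12.2% lower). With both libraries left out 4 of these markers rose and 1 fell in sh-PHLPP1, and 4 rose in sh-Luc, against the backgrounds given above for that fit. Their part in these counts was not tested.

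The genes that partner, relay to or act upstream of AP-1 and EGR1 had median changes between -0.60 and 0.28 with OxLDL, and moved in both directions. Of 10 AP-1 partners and MAF factors, 3 rose and 3 fell with OxLDL in sh-PHLPP1 and 3 rose in sh-Luc. Maff, a small MAF protein, rose by 2.48 ± 0.16 in sh-PHLPP1 and 1.53 ± 0.16 in sh-Luc, and Atf3, a stress-induced partner of JUN, by 2.51 ± 0.41 and 2.16 ± 0.41 in the same lines. Of 5 EGR and NR4A relatives and NAB corepressors none was called higher over all libraries, and Egr3 fell by 1.64 ± 0.45 in sh-PHLPP1 and 1.65 ± 0.38 in sh-Luc. In the group of SRF, its cofactors and CREB, 1 of 12 rose and 5 fell in sh-PHLPP1, with Crem, a CREB relative, at 1.63 and Srf, which drives Fos and Egr1 through the CArG box, at -0.59 (adjusted p = 0.00137). Of 21 genes of the MAP kinase cascade 4 rose and 10 fell in sh-PHLPP1, and 3 fell and 0 rose in sh-Luc, against the backgrounds of 26.2% higher and 28.4% lower in sh-PHLPP1 and 6.38% and 3.09% in sh-Luc. With both such libraries left out, the counts rising and falling in sh-PHLPP1 were 5 and 3 for the partners, 1 and 1 for the EGR and NR4A relatives, 2 and 5 for the SRF group and 4 and 13 for the MAP kinase genes. In sh-Luc they were 4 and 1, 0 and 2, 1 and 5, and 1 and 4 in the same order. The backgrounds of that fit were 29.5% rising and 32.7% falling in sh-PHLPP1, and 15.5% and 11.0% in sh-Luc. Mapkapk2, a kinase downstream of p38, was higher with OxLDL in sh-PHLPP1 (0.95 ± 0.10, adjusted p = 9.10e-06) and lower in sh-Luc (-0.51 ± 0.10, adjusted p = 0.00688), and its response differed by 1.46 ± 0.14 (adjusted p = 3.25e-05). Transcript levels of kinases do not measure their activity.

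**Figure D4:**
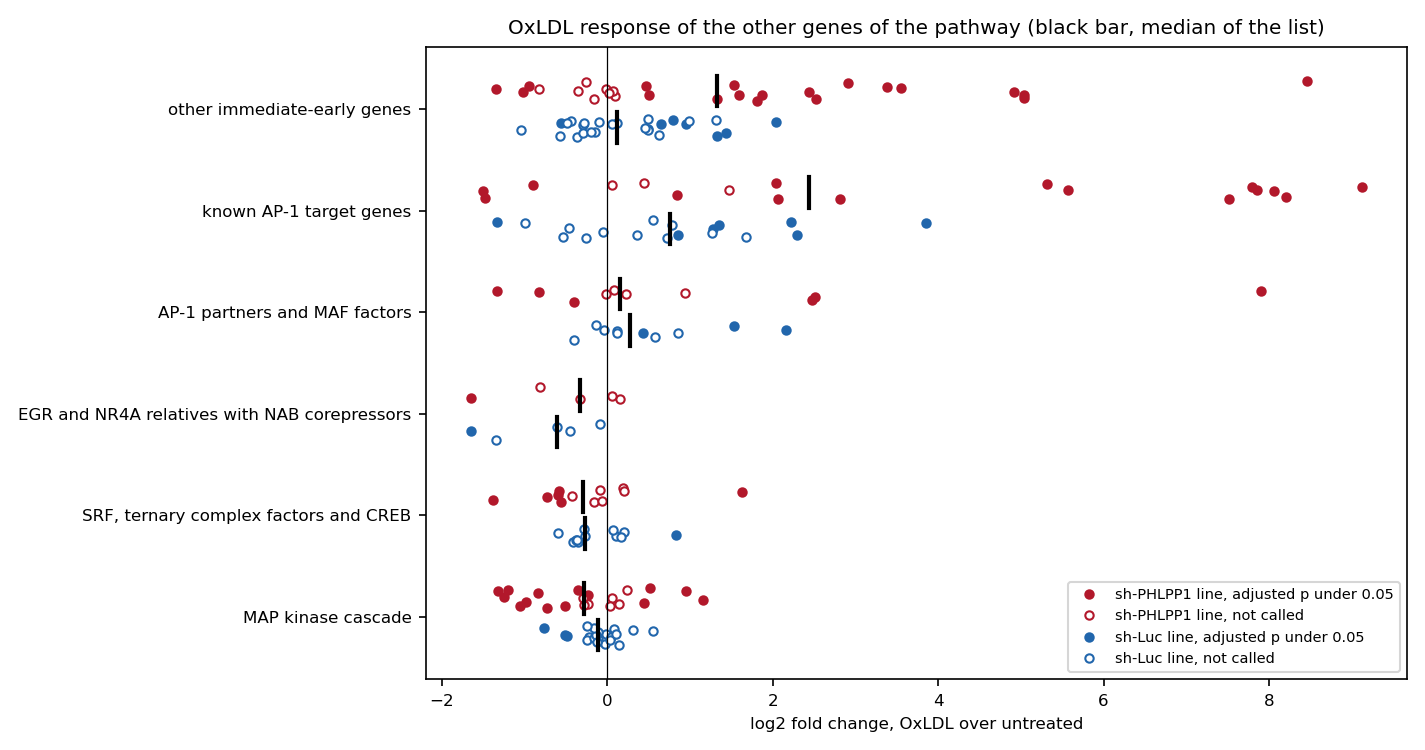
Log2 fold change with OxLDL of the genes of 6 lists (rows), with sh-PHLPP1 in red above sh-Luc in blue, filled where the adjusted p was under 0.05, and a black bar at the median. Medians of the immediate-early genes are 1.33 in sh-PHLPP1 and 0.12 in sh-Luc, those of the AP-1 targets 2.44 in sh-PHLPP1 and 0.76 in sh-Luc, and those of the other lists -0.60 to 0.28. The red partner gene far to the right is Batf, whose untreated sh-PHLPP1 libraries held no count, so its distance has no set size.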

How the data were processed

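RNA of RAW 264.7 cells was sequenced in bulk, 3 libraries in each of 4 groups. The values deposited by the authors and used here are raw read counts, whole numbers for 39179 genes in 12 libraries, and all 12 columns were used. The submitters' processing notes name GRCm38 as the build and list FastQC, Trimmomatic, HTSeq and DESeq2. Not given in the sources used here are an aligner, an annotation release or a strand setting. The authors also deposited tables of 3 comparisons, with log2 fold changes and adjusted p-values, which are quoted only where named.

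The filterByExpr rule kept 13121 genes with enough counts, and TMM factors scaled the libraries in edgeR 4.0.16 (R 4.3.3). Its quasi-likelihood test used 4 group means over 12 libraries, with no block and a 2-sided p adjusted by Benjamini-Hochberg over all genes tested. Genes with an adjusted p under 0.05 were called. The standard error (SE) of a log2 fold change was its size over the square root of F, and 95% intervals were built on it. The fit was tested on simulated counts. Totals of 16020186 to 27422114 counts per library leave little counting error for the abundant genes, and PCR copies are not independent molecules. Counting error is larger for Fosb, with 59 to 83 counts in OxLDL libraries of sh-PHLPP1, and Nr4a1, with 104 to 202 in sh-Luc libraries. Lymphocyte marker sums of at most 0.52 CPM rest on few counts. The 1633 rows with a gene identifier but no symbol were kept, and they held 0.397 to 0.505% of the counts.

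The genes and the gene lists were chosen with earlier results of these data known. From each list, at most the 3 genes with the smallest p in a comparison are named. Alternatives were DESeq2 1.42.0, other scalings and filters, a replicate block, fits to the compared groups alone, each library left out, and both libraries that stand apart left out. Gene positions and exon lengths came from GENCODE M21 (GRCm38), and promoter sequences from RefSeq (GRCm38.p6).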

Additional observations from a re-analysis of the deposited data

Results flagged for a closer look

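The 5 genes listed here had an OxLDL response that differed between the lines by a test of the difference itself (the interaction in edgeR). The response in sh-PHLPP1 minus that in sh-Luc was 2.29 for Junb, 2.26 for Ier3, 1.88 for Nr4a1, 1.16 for Fosl2 and 1.08 for Fosl1 on the log2 scale, with adjusted p of 0.000217, 0.00333, 0.000935, 0.00416 and 0.0295. All 3 OxLDL libraries of sh-PHLPP1 exceeded all 3 untreated ones for each gene. Such separation was not counted over all genes, and the 5 were picked on these same libraries, so it adds no support. Each line is 1 stable selection, so the shRNA and the line cannot be told apart.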

How the results depend on the processing

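The rises of Fosl1, Fosl2, Junb, Nr4a1 and Ier3 with OxLDL in sh-PHLPP1, the higher levels of Fosl2, Junb, Nr4a1 and Ier3 in sh-PHLPP1 after OxLDL and the interaction of these 4 were called in the same direction under every alternative run. The number of the 10 genes called depended on the setting elsewhere. DESeq2 called 4 in untreated cells (4233 of all genes), where edgeR called 2 (3549 of all genes). As run here, DESeq2 gave no adjusted p for Fos and Fosb in any comparison, so it could not call them. DESeq2 size factors in edgeR called 1 for OxLDL in sh-Luc (1261 of all genes), where 2 were called (1242 of all genes). With no filter on low counts that comparison had 4 (1254 of all genes). Fitting only the groups compared gave 5 for OxLDL in sh-Luc, 9 after OxLDL and 0 in untreated cells. Of all genes it called 2944, 8157 and 733 in the same order. Without both libraries that stand apart the counts were 6 for OxLDL in sh-Luc, 9 after OxLDL, 7 in untreated cells and 8 for the interaction. The counts over all genes were then 3528, 8851, 6267 and 5319. Both changes together, chosen after seeing the data, gave 6, 9 and 7, with 4901, 8157 and 7977 of all genes called. Leaving out 1 library at a time gave 6 to 8 for OxLDL in sh-PHLPP1, 0 to 5 in sh-Luc, 5 to 7 after OxLDL, 0 to 8 in untreated cells and 4 to 8 for the interaction. Over all genes the same fits called 6151 to 7535, 564 to 3086, 6114 to 8235, 1515 to 6372 and 2114 to 4496, in the same order.

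Directions turned as follows (log2). Library size alone shifted the median of all genes to -0.46 for OxLDL in sh-PHLPP1 and -0.43 for the interaction, and gave -0.033 for Jun and -0.018 for Jund in the first, -0.34 for Jun and -0.11 for Jund in the second, and 0.060 for untreated Fosb. With no filter the interaction of Jun was -0.0092. Without both libraries that stand apart Fos was 0.48 and Egr1 0.95 for OxLDL in sh-PHLPP1, Junb 0.049 for OxLDL in sh-Luc, Fos -1.42 untreated, and the interaction 1.28 for Fosb and 0.79 for Egr1. With only the compared groups in addition, these were 0.50, 0.97, 0.045 and -1.46 for the first 4. Leaving out 1 library gave ranges across 0 of -1.79 to 0.48 for Fos and -0.80 to 0.95 for Egr1 (OxLDL in sh-PHLPP1), of -0.33 to 0.050 for Junb and -0.047 to 0.27 for Nr4a1 (OxLDL in sh-Luc), and of -1.78 to 0.49 for Fos, -2.98 to 1.08 for Fosb, -0.49 to 0.061 for Jun and -1.63 to 0.12 for Egr1 (untreated). For the interaction they were -1.60 to 2.45 for Fosb, -0.15 to 0.40 for Jun and -0.99 to 0.77 for Egr1. The causes were not tested.

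Replicates 1, 2 and 3 are passages 9, 10 and 11 in every group. Same-numbered libraries of different groups correlated at -0.278 to 0.277 in their deviations from the group means over 18 pairs, with 5 over 0.1. Other-numbered libraries correlated at -0.295 to 0.301 over 36 pairs, with 8 over 0.1. The main fit did not pair the libraries by number. The libraries that stand apart enter these deviations under different numbers, so the correlations cannot exclude a pairing by passage. With a replicate block the counts called were 6, 2, 5, 2 and 5 in the order OxLDL in sh-PHLPP1, OxLDL in sh-Luc, after OxLDL, untreated and interaction. Over all genes they were 6984, 1115, 7051, 3282 and 2965 in that order. With the block, untreated Fos was -0.39 and the interaction of Fosb 0.15. In untreated cells the block called Fosl1 (-0.66, adjusted p = 0.0455) in place of Fosl2 (-0.46, adjusted p = 0.0583). With the block, Fosb for OxLDL in sh-PHLPP1 was -2.47 (adjusted p = 0.0893).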
